A study of Gossypium hirsutum with 24 samples.

Results

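Gene expression in cotton leaves was compared with that in young seedlings, over 3 leaf arrays and 3 seedling arrays out of 24 arrays of 8 tissues. The arrays were chosen by their tissue label alone, and all 23977 probe sets that are not controls were considered, of 24132 in all. The leaf samples came from a 1-month-old plant of Gossypium hirsutum, upland cotton. The seedlings were taken 5 days after germination. No cultivar, transgene or treatment is named for either, and the organs that made up a seedling sample are not given. The other 18 arrays held anthers, and buds from which the anthers had been removed, at bud sizes of 5, 7 and 8 mm, and are used here to show where leaf and seedling genes stood elsewhere in the plant.

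A leaf is built mainly of green photosynthetic cells under a waxy epidermis. A cotton seedling of this age joins green cotyledons to an elongating stem and a growing root, and draws on reserves laid down in the seed. Growing axes extend by loosening and rebuilding their cell walls, form water-conducting vessels stiffened by lignin, and import sucrose that must be split before use. Cotton also makes gossypol and related terpenes, which defend leaves, seeds and roots against insects and microbes.

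RCA1, the gene of Rubisco activase, which keeps the carbon-fixing enzyme of photosynthesis active, served as a check on the labels. Its log2 values were 13.40, 13.38 and 13.06 in leaf, and 12.48, 12.46 and 12.37 in seedling. Both tissues were bright for it, and the leaf arrays lay above the seedling arrays, but the difference of 0.84 did not pass the test (adjusted p = 0.181). Its group means were between 2.40 and 2.46 in anthers and between 5.67 and 6.13 in buds without anthers. SEPALLATA3, a MADS-box gene of floral organ identity, averaged 2.44 in leaf and 2.22 in seedling, close to the background level of 2.23. RCA1 had the highest difference of 4 photosynthesis and photorespiration genes, of which 2 lay above 0 and 2 below, with a median of -0.09. All 3 tested seed storage and late embryogenesis genes lay above 0, with a median of 1.35. Of these 3, the legumin gene LEGB was called, and it was higher in leaf. RCA1 thus set both tissues apart from anthers, but it was not called between leaf and seedling. Other green-tissue, root and reserve markers could be named only in small part, so the organs within the seedling samples were not checked further.

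Values are the authors' log2 signals, so a difference of 1 is a 2-fold change. A probe set counted as tested where at least 3 of the 24 arrays exceeded background, which held for 17666. It was called when limma's moderated test, adjusted by Benjamini-Hochberg over all tested probe sets, gave an adjusted p under 0.05 and the difference was at least 1. On leaf arrays 66.1% to 67.1% of probe sets were above background, and on seedling arrays 66.2% to 67.0%. GCRMA, the authors' method, brings arrays to a common distribution, so these shares cannot show equal quality. The actin control's 5′ minus 3′ difference, a measure of RNA integrity, ran from -3.29 (replicate 4) to -2.52 (replicate 3) in leaf. In seedling it ran from -3.23 to -2.88. Correlations between arrays were 0.982 to 0.996 within leaf and 0.992 to 0.996 within seedling, against 0.923 to 0.933 between leaf and seedling. Leaf replicate 4 had the lowest correlations with its own group, 0.982 and 0.984, and results that moved without it are given with and without it. The labelled spike-in controls averaged 9.46 in leaf and 9.81 in seedling, so an alternative scaling by these controls raised all bright leaf values by 0.34 relative to seedling. That scaling also set all scaled values below 3.04 to 3.04, and 15724 probe sets were tested in it. Differences from values near background therefore also shrank through this floor, in either direction.

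Leaf and seedling differed widely. Of the tested probe sets, 1497 (8.47%) were higher in leaf and 1585 (8.97%) were lower in leaf, together 3082 or 17.4%. In 3041 of the 3082 the leaf and seedling arrays did not overlap. Over all tested probe sets, the arrays did not overlap in 5261 with leaf higher and in 4776 with leaf lower. Separation of the arrays was therefore common without a call too, and does not by itself set the called probe sets apart. On the deposited scale the largest differences were more often falls. Differences of at least 4 on the log2 scale were found in 60 probe sets higher in leaf and 144 lower in leaf, and differences of at least 6 in 7 higher and 36 lower. The median difference over all tested probe sets was 0.0025. With spike-in scaling the median moved to 0.27 and the split became 2230 higher and 865 lower, so that 72.1% of calls were higher in leaf, against 48.6% with the values as deposited. Quantile normalization gave 48.7% of calls higher in leaf and median centring 44.4%. The mean of the spike-in controls ran from 8.99 to 9.83 over leaf arrays and from 9.60 to 10.12 over seedling arrays, so the ranges overlapped. The balance between gains and losses therefore depends on whether spike-in scaling is used, and the differences below are relative to the deposited scale.

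**Figure D1:**
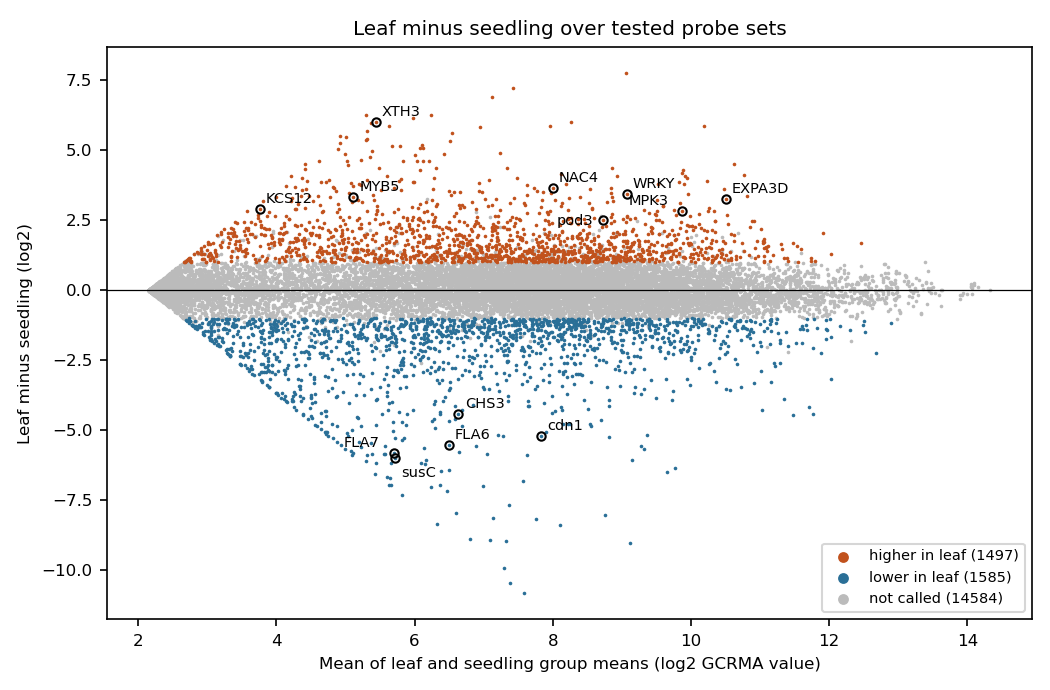
Each point is 1 tested probe set, with the mean of its leaf and seedling group means on the x axis and the leaf minus seedling difference on the y axis, both on the log2 scale. Orange points (1497) were called higher in leaf, blue points (1585) lower in leaf and grey points (14584) were not called; the named genes with the largest differences are circled, and the points reach further below 0 than above it.

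Genes could be named for 495 tested loci with 1 probe set each, of which 34 (6.87%) were higher in leaf and 104 (21.0%) were lower in leaf, with a median difference of -0.24. The named loci thus leaned towards seedling more than the array as a whole. Of these, 231 had an alternative name, with 24 higher and 51 lower. Such a name does not always tell the product, and the roles given below were assigned from these names. The 176 tested members of 21 functional lists held 20 higher and 37 lower. Counts within a list are to be read against these shares as well as the array-wide 8.47% and 8.97%. Leaving out leaf replicate 4 moved the count of a list by at most 1 gene in each direction. Higher in leaf, wall enzymes then numbered 3 (from 2), fatty acid genes 2 (from 1) and MYB factors 2 (from 1). Ethylene genes numbered 3 (from 2), other transcription factors 5 (from 4), and kinase and calcium sensor genes 1 (from 2). Lower in leaf, terpene, flavonoid and lignin genes numbered 4 (from 5), and NAC factors and transport genes 0 (from 1 each). Probe sets ending in _s_at, _x_at or _a_at can bind several related transcripts, and cotton carries paired copies of most genes, so a name may stand for close relatives too. Tissues were measured in bulk, so fewer cells of a type and less RNA per cell cannot be told apart.

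Enzymes that loosen and rework the cell wall changed in both directions, and they included the named gene that rose most. XTH3, a xyloglucan endotransglucosylase that cuts and rejoins the tethers between cellulose fibres, had log2 values of 8.77, 8.78 and 7.75 in leaf, and 2.61, 2.54 and 2.16 in seedling. The seedling values lay at or just above background and all leaf arrays were far above them. The difference was 6.00 ± 0.23 (SE; adjusted p = 2.4e-13), or 5.22 with spike-in scaling, and a fold is not given because 1 seedling array was below background. EXPA3D, an expansin, one of the proteins that let walls slip under turgor, had 12.04, 12.25 and 12.08 in leaf, and 8.87, 8.94 and 8.83 in seedling. That was a difference of 3.25 ± 0.68 (adjusted p = 9.6e-04), and a second probe set of the gene gave 3.12. A different expansin, EXPA4, went the other way, averaging 7.65 ± 0.16 in leaf and 8.80 ± 0.13 in seedling (SD, n = 3 each), a fall of 1.15 that was lost with spike-in scaling (adjusted p = 0.165). Its other probe sets, at -0.83 and -0.22, were not called.

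The 3 other wall enzymes lower in leaf were CesA1, CTL1 and UGD2. CesA1, a catalytic subunit of cellulose synthase, had 5.23, 4.25 and 4.43 in leaf, and 7.24, 7.48 and 7.33 in seedling. The groups were well apart, with a difference of -2.71 ± 0.62 (adjusted p = 0.0019), while a second probe set gave only the table's floor value in both tissues. CTL1, a chitinase-like protein linked to cellulose deposition, differed by -2.20 ± 0.37 (adjusted p = 1.1e-04). UGD2, a UDP-glucose dehydrogenase that supplies precursors of pectin and hemicellulose, differed by -1.71 ± 0.33 (adjusted p = 4.9e-04). In all, 2 of the 14 tested wall enzymes were higher in leaf and 4 were lower, with a median difference of -0.41. The 8 without a call ranged from RHM3 at -0.70 to the pectate lyase gene Pel at 0.87.

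Fasciclin-like arabinogalactan proteins, glycoproteins of the cell surface that are abundant where walls thicken, were lower in leaf in 5 of 10 tested members and higher in none, with a median difference of -1.10 (-0.76 with spike-in scaling, when 4 were lower). FLA7 had 2.92, 2.72 and 2.72 in leaf, and 8.40, 8.69 and 8.74 in seedling. It was bright in every seedling and dim in every leaf, a difference of -5.82 ± 0.33 (adjusted p = 1.0e-10; -5.05 with spike-in scaling). FLA6 had the same value, 3.73, on all 3 leaf arrays, against 9.20, 9.23 and 9.34 in seedling. The leaf group therefore has no measured spread and the difference of -5.53 is approximate, although a second probe set gave -6.16. FLA15 differed by -1.95, FLA13 by -1.79 and FLA4 by -1.45, and FLA4 lost its call with spike-in scaling (adjusted p = 0.0526). FLA11 and FLA12 stood at -0.72 and -0.75 and were not called, nor were FLA14 at 0.14, FLA18 at 0.18 and FLA19 at -0.35.

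Sucrose synthases, which split sucrose into fructose and the UDP-glucose used for cellulose, were lower in leaf in 2 of 3 members. susC stood at 2.73 on all 3 leaf arrays, against 8.70, 8.71 and 8.74 in seedling. The approximate difference was -5.99, or -5.15 with spike-in scaling. Sus1 had 9.03, 8.91 and 8.91 in leaf, and 11.56, 11.55 and 11.61 in seedling, which differed by -2.62 ± 0.23 (adjusted p = 3.9e-08). SusA1 was not called, averaging 8.95 ± 0.21 in leaf and 8.64 ± 0.73 in seedling (SD, n = 3 each).

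**Figure D2:**
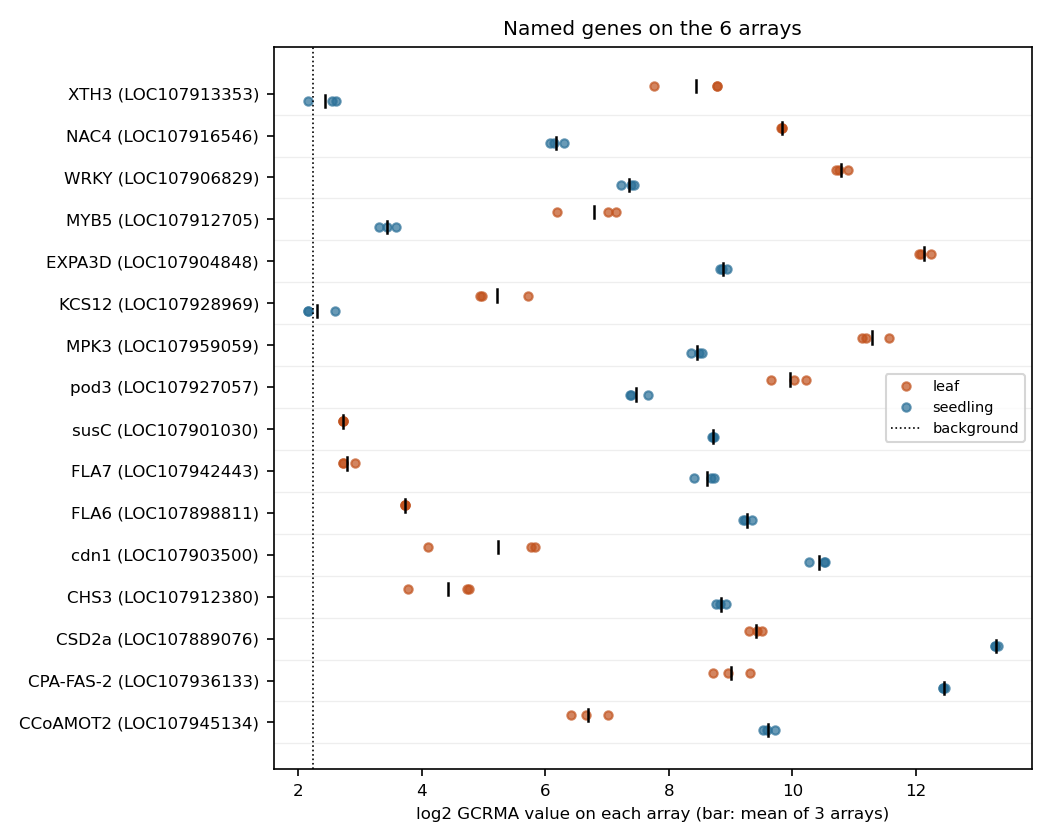
Log2 values of 16 named genes on each of the 6 arrays, leaf (orange) above seedling (blue) in each row; black bars are means of 3 arrays and the dotted line is the background of 2.23. Leaf and seedling points do not overlap in any row, which was a condition for choosing most of these genes, and the 3 leaf points of susC and of FLA6 coincide.

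Genes of terpene, flavonoid and lignin synthesis were lower in leaf in 5 of 9 tested members and higher in 1, with a median difference of -1.06 (-0.61 with spike-in scaling, when 3 were lower). The largest fall was in cdn1, the gene of (+)-delta-cadinene synthase, which makes the first committed intermediate of gossypol. It had 5.77, 5.83 and 4.10 in leaf, and 10.26, 10.53 and 10.51 in seedling. Seedling arrays were far above leaf arrays, with a difference of -5.20 ± 0.38 (adjusted p = 4.1e-09). The probe set has the _x_at ending, which marks probes that can also bind related genes, and cadinene synthases form a family of close copies.

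CHS3, a chalcone synthase, the entry enzyme of flavonoid synthesis, had 4.77, 3.78 and 4.74 in leaf, and 8.92, 8.83 and 8.77 in seedling. The groups did not approach each other, and the difference was -4.41 ± 0.37 (adjusted p = 3.1e-08). A second chalcone synthase, CHS2, was dim in both tissues at 2.95, 2.49 and 2.73 in leaf, and 4.83, 2.95 and 4.23 in seedling. Its groups touched, and its call (-1.28, adjusted p = 0.0449) was lost when leaf replicate 2 (adjusted p = 0.0628), 3 (0.123) or 4 (0.0884) or seedling replicate 5 (0.225) or 7 (0.125) was left out, and with spike-in scaling (-0.61, adjusted p = 0.279). CHS6 averaged 3.74 in leaf and 2.97 in seedling without a call. DFR, dihydroflavonol reductase on the branch to anthocyanins and condensed tannins, differed by -1.06 (adjusted p = 0.0023), a size just past the limit, and fell short of it without leaf replicate 2 (-0.93) or 3 (-0.89). Its call was also lost with quantile normalization (-0.999) and with spike-in scaling (-0.71, adjusted p = 0.177).

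The 2 lignin genes moved in opposite directions. CCoAMOT2, a caffeoyl-CoA methyltransferase, had 6.41, 6.66 and 7.02 in leaf, and 9.53, 9.72 and 9.59 in seedling. It was lower in every leaf, at -2.92 ± 0.40 (adjusted p = 1.2e-05). CCR1, a cinnamoyl-CoA reductase, averaged 9.69 ± 0.40 in leaf and 8.29 ± 0.12 in seedling (SD, n = 3 each), a rise of 1.40 (adjusted p = 0.0206). That call was lost without leaf replicate 2 (adjusted p = 0.0637), leaf replicate 3 (0.0726) or seedling replicate 5 (0.0618).

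Antioxidant enzymes were lower in leaf in 3 of 10 tested members and higher in none. CSD2, a copper/zinc superoxide dismutase, had 9.42, 9.29 and 9.50 in leaf, and 13.28, 13.28 and 13.32 in seedling. Both groups were tight, and the difference was -3.89 ± 0.11 (adjusted p = 4.7e-15), or 14.8-fold lower in leaf. DHAR1, a dehydroascorbate reductase that recycles vitamin C, differed by -2.80 ± 0.19 (adjusted p = 1.3e-09). A glutathione S-transferase (LOC107889738) differed by -1.74 on its main probe set, and by -2.17 and -1.09 on the others, all called. The catalase gene CAT2 was at 0.61 and the ascorbate peroxidases gAPX and sAPX at -0.52 and -0.08, none of them called.

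Peroxidases, which in plants also act on wall polymers, were mixed, with 1 of 11 higher and 3 lower, and a median of 0.00. pod3 had 10.22, 10.03 and 9.65 in leaf, and 7.38, 7.38 and 7.66 in seedling, a difference of 2.50 ± 0.11 (adjusted p = 1.8e-12). It was bright in both tissues, and in all 6 anther and bud groups it averaged 2.16, below background. pod6 had 2.23, 2.16 and 2.23 in leaf, and 5.19, 4.73 and 4.73 in seedling. Since every leaf array was at or below background, its level was at least 6.27-fold lower in leaf (adjusted p = 0.0153), and the call was lost without seedling replicate 5 (adjusted p = 0.0508). pod1 differed by -1.30 and POX9 by -1.02, which fell short of the size limit without leaf replicate 2 (-0.91) or seedling replicate 5 (-0.96). With spike-in scaling pod6 (-1.32, adjusted p = 0.25), pod1 (a difference of -0.96) and POX9 (adjusted p = 0.129) were no longer called.

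In lipid metabolism, 1 of 14 genes of fatty acid, wax and sterol synthesis was higher in leaf and 2 were lower. KCS12, a 3-ketoacyl-CoA synthase of the family that makes the very long chains used for wax and cutin, had 4.95, 4.98 and 5.72 in leaf, and 2.16, 2.59 and 2.16 in seedling. Leaf arrays were clearly above background and 2 of the 3 seedling arrays were not, with a difference of 2.91 ± 0.41 (adjusted p = 1.8e-05; 1.99 with spike-in scaling). A related gene, KCS38, was at 0.96, just short of a call. CPA-FAS-2, a cyclopropane fatty acid synthase, had 9.32, 8.97 and 8.72 in leaf, and 12.48, 12.45 and 12.44 in seedling. The difference was -3.45 ± 0.22 (adjusted p = 5.3e-10), while its relatives CPA-FAS-1 and CPA-FAS-3 were at 0.46 and -0.26 without a call. sad1, a stearoyl-ACP desaturase that introduces the first double bond, differed by -2.06 (adjusted p = 1.1e-08). Among 6 genes of lipid transfer and breakdown, the lipoxygenase Lox1 was higher in leaf at 1.17 and the acyl-CoA-binding protein ACBP was lower at -1.60.

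Transcription factors included several of the largest rises. NAC4, of the plant-specific NAC family, had 9.81, 9.83 and 9.83 in leaf, and 6.14, 6.08 and 6.30 in seedling. The leaf arrays were nearly identical and far above the seedling arrays, and the difference was 3.66 ± 0.82 (adjusted p = 0.0017), with 3.58 on a second probe set. The standard error uses 1 spread for all 8 tissues, and it was wider than the leaf and seedling arrays alone show. A WRKY factor (LOC107906829), of a family known for roles in defence and ageing, had 10.90, 10.71 and 10.75 in leaf, and 7.38, 7.23 and 7.44 in seedling. That was a difference of 3.44 ± 0.66 (adjusted p = 4.5e-04).

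The MYB gene named MYB5 or MYB6 (LOC107912705) had 6.19, 7.01 and 7.14 in leaf, and 3.43, 3.58 and 3.31 in seedling, a difference of 3.34 ± 0.27 (adjusted p = 1.8e-08). It was the only one of 8 MYB factors with a call. Of 4 NAC factors, NAC7 was lower at -1.02, a call lost without leaf replicate 3 (-0.84), leaf replicate 4 (-0.98) or seedling replicate 6 (-0.96), and NAC2 stood at 1.23 without passing (adjusted p = 0.169). The NAC7 call was also lost with quantile normalization (-0.96) and with spike-in scaling (-0.59, adjusted p = 0.165). MADS-3 was the 1 MADS-box factor of 5 with a call, averaging 8.94 ± 0.14 in leaf and 7.29 ± 0.07 in seedling (SD, n = 3 each).

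Of 15 other transcription factors, 4 were higher in leaf and 1 lower. Besides the WRKY gene these were 2 factors of the cold and drought response family, CBF20 (also DREB1C) at 1.84 and CBF15 at 1.53, and the homeodomain gene HOX3 at 1.69, known from cotton fibre elongation. HOX3 had 3.38, 3.46 and 4.96 in leaf, and 2.35, 2.21 and 2.16 in seedling. It was low in all leaves and at background in most seedlings, and its call was lost with spike-in scaling (0.78, adjusted p = 0.089). ZFP1, a zinc finger gene, had 2.75, 2.27 and 2.71 in leaf, and 5.56, 5.98 and 5.70 in seedling. It differed by -3.17 ± 0.68 (adjusted p = 0.0012), and with spike-in scaling by -2.18 (adjusted p = 0.0556).

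Of 10 ethylene genes, 2 were higher in leaf and 1 was lower, with a median difference of 0.03. The 3 called genes encode ACC oxidases, which make the hormone itself. ACO3 had 13.19, 13.08 and 13.64 in leaf, and 11.62, 11.57 and 11.63 in seedling, higher in leaf by 1.70 ± 0.36 (adjusted p = 0.0011). Of 2 loci named ACO1, LOC107954048 had 7.94, 7.90 and 8.89 in leaf, and 6.18, 6.32 and 5.74 in seedling, a difference of 2.16. LOC107905899 had 10.10, 10.25 and 10.85 in leaf, and 12.15, 12.20 and 12.16 in seedling, a difference of -1.77. The 2 loci thus moved in opposite directions, with no overlap between tissues in either. The other 7 ethylene genes, among them the ACC synthases ACS1 at -0.30 and ACS6 at 1.41 (adjusted p = 0.096), were not called.

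Of 8 auxin, gibberellin and brassinosteroid genes, Aux3 was higher at 1.76 (adjusted p = 4.1e-09) and Aux6 lower at -1.46 (adjusted p = 6.2e-04). Aux3 averaged 11.24 ± 0.08 in leaf and 9.48 ± 0.03 in seedling, and Aux6 averaged 9.53 ± 0.05 in leaf and 10.99 ± 0.03 in seedling (SD, n = 3 each). The gibberellin receptor genes GID1-2 and GID1-4 stood at 0.96 and 0.62 without a call.

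Among 9 kinase and calcium sensor genes, 2 were higher in leaf and none lower. MPK3, a mitogen-activated protein kinase of stress and defence signalling, had 11.13, 11.19 and 11.56 in leaf, and 8.35, 8.49 and 8.54 in seedling. The arrays of the 2 tissues were far apart, with a difference of 2.83 ± 0.92, but the adjusted p of 0.0207 rose to 0.0595 without leaf replicate 4 and to 0.0548 without seedling replicate 5. The other 5 probe sets of the locus were not called, the highest at 1.26. CBL1, a calcineurin B-like calcium sensor, was higher at 1.48 on its brighter probe set, with 0.13 and no call on the other.

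Tubulins and other cytoskeleton genes were lower in 3 of 13 members and higher in none, at -1.89 for BTub1, -1.33 for TubA4 and -1.21 for BTub4. With spike-in scaling 1 was lower and 1 higher. BTub1 had 9.85, 10.01 and 11.17 in leaf, and 12.45, 12.08 and 12.19 in seedling, so leaf replicate 4 lay nearer to the seedlings than the other two. TubA4 was called on its brightest probe set, while the others stood at 0.83 and 0.27 without a call. Those were at or below background on every seedling array, so they say little about the direction. The actin genes lay between -0.45 and -0.02 without a call.

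Of 9 genes for ribosomal proteins, elongation factors and histones, RPS4 alone was called, at -1.06, and its call was lost without leaf replicate 3 (-0.92) and with spike-in scaling (adjusted p = 0.0786). Of 6 transport genes, the vacuolar sodium/proton exchanger NHX1 was higher at 1.53 (adjusted p = 4.3e-05). The aquaporin NIP6.1 was lower at -1.21, a call lost without leaf replicate 4 (-0.92) and with spike-in scaling (adjusted p = 0.168).

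Defence-related genes were lower in leaf in 3 of 5 members. HrBP1, a harpin-binding protein, averaged 9.92 ± 0.20 in leaf and 11.87 ± 0.11 in seedling (SD, n = 3 each), a difference of -1.95 (adjusted p = 9.5e-08). GLU differed by -1.39 and PGIPL by -1.26, and both lost their calls with spike-in scaling (adjusted p = 0.0629 and 0.124). In that scaling 1 member was lower and 1 was higher.

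None of the 4 photosynthesis and photorespiration genes was called in either direction. GOX, glycolate oxidase of the photorespiratory pathway, averaged 11.30 ± 0.03 in leaf and 12.08 ± 0.03 in seedling, and GS, glutamine synthetase, 8.42 ± 0.13 in leaf and 9.10 ± 0.05 in seedling (SD, n = 3 each). Both adjusted p-values were below 0.05, but the differences of -0.78 and -0.68 were under the size limit. Of the seed storage and late embryogenesis genes, 3 of 6 exceeded background on enough arrays to be tested. The legumin gene LEGB was higher in leaf, at 7.40, 6.97 and 7.04 in leaf, and 5.89, 5.84 and 5.65 in seedling (1.35 ± 0.31, adjusted p = 0.0022). Lea14-A was at 1.91 (adjusted p = 0.0699) and Lea5-D at 1.01 (adjusted p = 0.357), neither called.

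**Figure D3:**
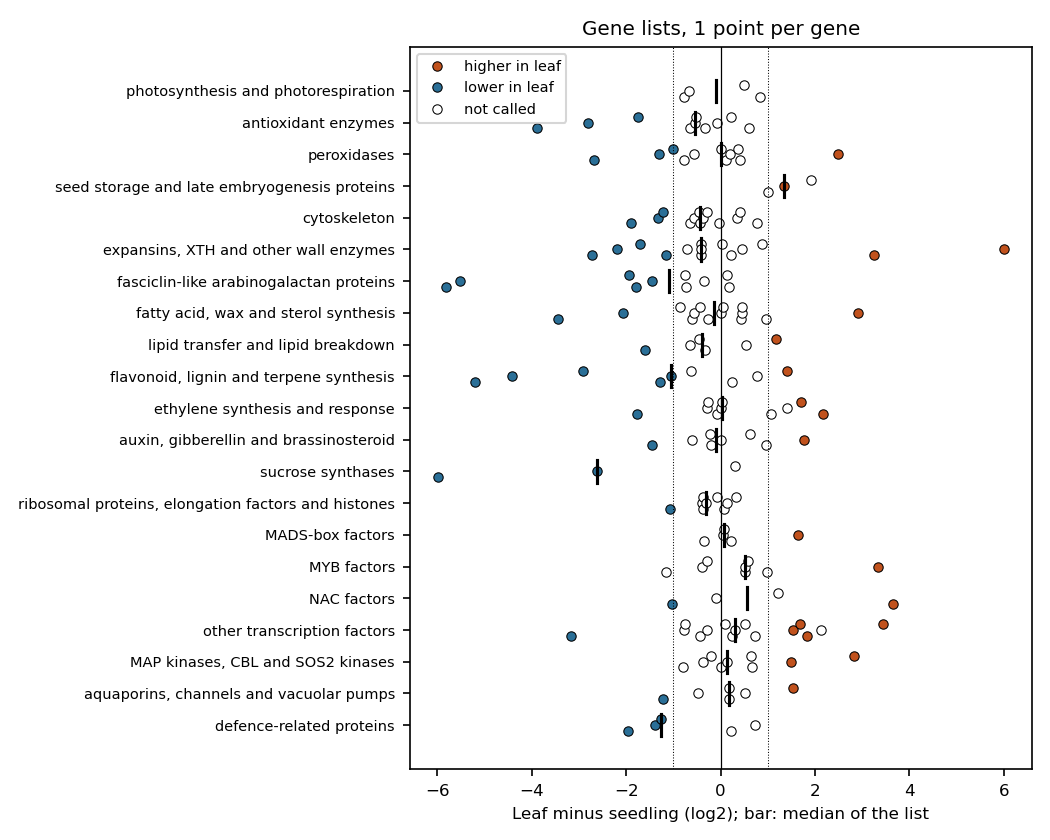
Leaf minus seedling differences (log2, x axis) of the 176 tested genes in 21 functional lists, 1 point per gene; orange points were called higher in leaf, blue points lower and white points not called, the black bar is the median of the list and the dotted lines mark -1 and 1. XTH3 at 6.00 lies furthest to the right, and susC, FLA7, FLA6 and cdn1 lie furthest to the left.

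The loci with no alternative name included the named locus with the widest difference. LOC107898061 sat at the floor of the values, 2.16, on all 3 leaf arrays, against 9.45, 9.44 and 9.50 in seedling, and was at least 150-fold lower in leaf on the deposited scale. Its difference of -7.30 became -5.90 with spike-in scaling. LOC107909128 had 2.44, 2.44 and 4.29 in leaf, and 9.22, 9.14 and 9.38 in seedling, a difference of -6.19 that became -6.80 without leaf replicate 4 and -5.36 with spike-in scaling. LOC107914734, LOC107959093 and LOC107889256 differed by -4.99 (-4.03 with spike-in scaling), -4.80 and -4.77. LOC107946937 and LOC107896372, both at background in leaf, were at least 20.7-fold and at least 20.5-fold lower there on the deposited scale. With spike-in scaling their differences of -4.44 and -4.42 became -3.04 and -3.03.

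On the other side, LOC107905695 had 10.53, 10.43 and 10.58 in leaf, and 7.44, 7.09 and 7.06 in seedling, a difference of 3.32 ± 0.16. LOC107945647 was higher at 2.48 ± 0.14. In 2 further loci leaf replicate 4 set the size. LOC107894267 had 11.10, 11.09 and 8.89 in leaf, and 7.32, 7.15 and 7.18 in seedling, giving 3.15, or 3.88 without that array. LOC107898995 had 6.83, 6.60 and 3.73 in leaf, and 2.82, 2.91 and 2.78 in seedling, giving 2.89, or 3.88 without it. A fit on the 6 arrays alone left LOC107898995 just short of a call (adjusted p = 0.0549), and its second probe set stood at -0.06.

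The widest differences on the array belonged to probe sets with no gene name. GbaAffx.211.1.S1_s_at had 2.16, 2.16 and 2.21 in leaf, and 13.01, 12.91 and 13.03 in seedling. It was at least 1720-fold lower in leaf on the deposited scale (a difference of -10.81, or -9.42 with spike-in scaling), and all anther and bud groups also averaged this floor value, so it was above background in seedlings alone. Ghi.8388.1.S1_x_at sat at the floor on every leaf array, against 12.74, 12.47 and 12.60 in seedling, at least 1322-fold lower in leaf on the same scale (-10.44, or -9.04 with spike-in scaling). Ghi.1398.1.S1_at had 12.81, 12.85 and 13.14 in leaf, and 5.22, 5.13 and 5.18 in seedling, a difference of 7.76 ± 0.97. GraAffx.27703.1.S1_s_at had 11.29, 11.18 and 10.62 in leaf, and 3.64, 4.31 and 3.48 in seedling, a difference of 7.22 ± 0.37.

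Presence in only 1 of leaf and seedling was less frequent than a difference in level. The floral tissues were not considered in these counts, and a probe set could pass the filter through those 3 arrays alone. Above background on all 3 leaf arrays and at or below it on all 3 seedling arrays were 80 probe sets, of which 22 were called, with a median bound of at least 2.97-fold. The reverse held for 131 probe sets, of which 79 were called, with a median bound of at least 7.74-fold. Over all tested probe sets, 17.4% were called. Most of these probe sets were dim, with median levels over the 24 arrays of 2.30 (leaf) and 2.45 (seedling), close to the background of 2.23. With the background raised to 2.78, the counts were 114 for leaf and 233 for seedling.

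Set beside the floral tissues, genes higher in leaf were often at their highest in leaf. Of the 1497, 792 (52.9%) had their highest group mean in leaf and 205 (13.7%) in buds of 7 mm. Of the 1585 lower in leaf, 679 (42.8%) had their highest mean in seedling, and the rest were spread over anthers and buds. Among probe sets without a call, 15.5% were highest in leaf and 13.0% in seedling. The call itself excludes the lower of the 2 tissues as the highest one, so these shares describe the sets and are not a test. The probe sets lower in leaf had a median level of 5.68 in leaf and 7.93 in seedling, against 6.92 to 7.10 in anthers and 7.39 to 7.47 in buds.

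**Figure D4:**
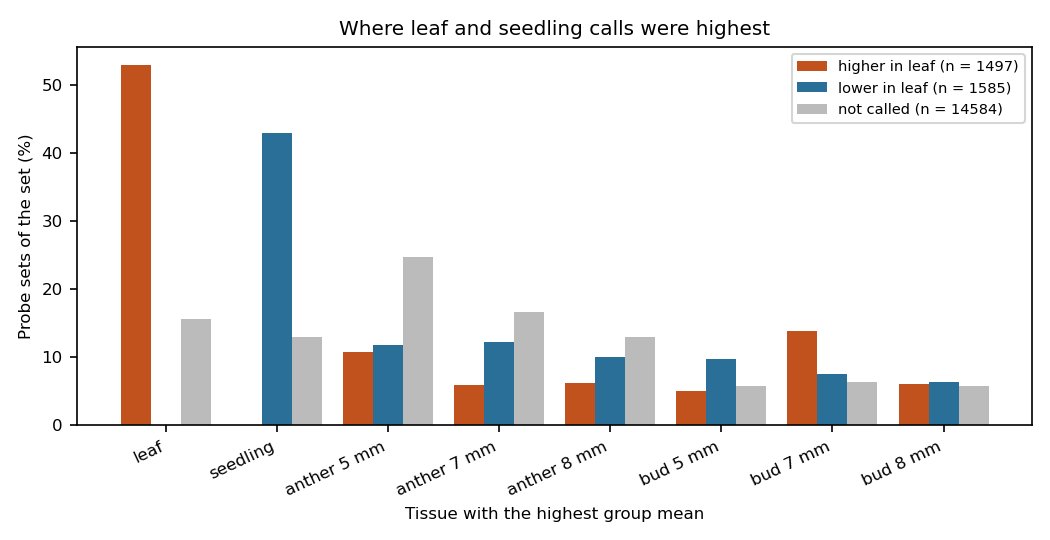
Share of probe sets (%, y axis) whose highest group mean fell in each of the 8 tissues (x axis; buds are without anthers), for the sets higher in leaf, lower in leaf and not called. Leaf holds 52.9% of the first set and seedling 42.8% of the second.

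The named genes took several shapes over the 8 tissues. XTH3 was highest in leaf, at 8.44, with 2.44 in seedling, 3.81 to 4.80 in anthers and 4.92 to 6.45 in buds. EXPA3D was also highest in leaf at 12.12, with 8.88 in seedling and 5.98 to 9.37 in anthers. KCS12 averaged 5.21 in leaf, 2.31 in seedling and no more than 3.22 elsewhere. NAC4 averaged 9.83 in leaf, 6.17 in seedling and 9.65 to 11.73 in buds, and the WRKY gene 10.79 in leaf, 7.35 in seedling and 10.86 to 11.97 in buds.

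The genes with the largest falls also split. susC averaged 2.73 in leaf and 8.71 in seedling, with 8.03 to 8.61 in buds but 2.63 to 2.73 in anthers, and FLA6 and FLA7 were likewise dim in leaf and anthers and bright in seedling and buds. cdn1 and CSD2 were lower in leaf than in any other tissue, at 5.23 against 8.58 to 10.44 for cdn1 and at 9.40 against 11.31 to 13.29 for CSD2. CHS3, at 4.43 in leaf, was highest in anthers of 8 mm buds at 9.17, where its mean exceeded the 8.84 of seedlings.

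**Figure D5:**
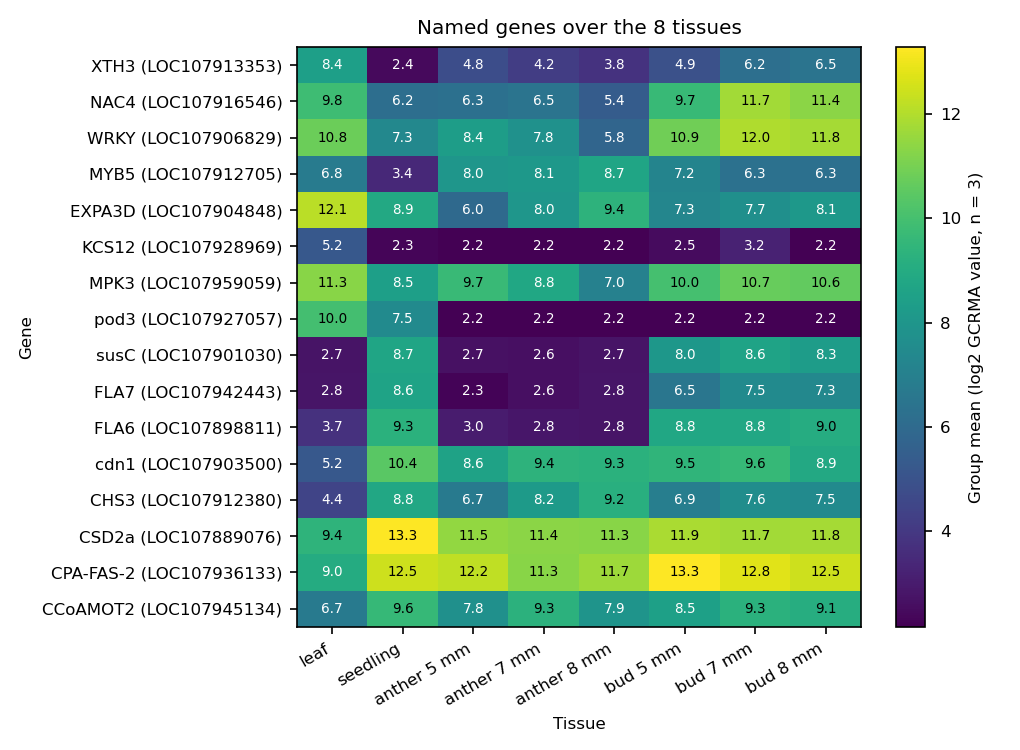
Group means (log2, n = 3 arrays each) of 16 named genes in the 8 tissues, leaf and seedling first; the colour and the printed number give the mean, and buds are without anthers. susC, FLA7 and FLA6 are dim in leaf and anthers and bright in seedling and buds, and pod3 is at 2.2 in every floral tissue.

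Many of the same probe sets were also lower in anthers than in the buds they were taken from, a comparison made on other arrays. Shares higher in anthers were not counted. Over all tested probe sets, 12% were lower in anthers at 5 mm, 14.9% at 7 mm and 13.6% at 8 mm. Of those higher in leaf, 24.2%, 35.7% and 33.8% were lower in anthers at 5, 7 and 8 mm, and of those lower in leaf 27.9%, 28.7% and 25.4%. As shares of the anther lists, the shared probe sets were 17.1%, 20.3% and 21.1% for those higher in leaf, and 21.0%, 17.3% and 16.8% for those lower in leaf. Both directions of the leaf call thus held more such probe sets than the tested set as a whole, with no test made of the overlap. The tested set includes 4604 probe sets with a mean below 4 over leaf and seedling. Of these only 2.89% were called higher and 4.84% lower in leaf, and the shares were not adjusted for level. When each comparison was fitted on its own 6 arrays, 8.24% of all tested probe sets were lower in anthers at 5 mm, 14.2% at 7 mm and 13% at 8 mm. The shares at 5 mm were then 13.3% of those higher in leaf and 22.2% of those lower in leaf. The 2 comparisons share no arrays but, in the fit used here, 1 estimate of the spread.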

How the data were processed

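The log2 values were deposited by the authors, who made them with GCRMA according to the tool list, per the submitters' processing notes. Neither its settings nor the build behind the array annotation is stated in those notes. The method estimates background from each probe's bases, brings the arrays to a common distribution and condenses probes to 1 value a probe set. Of the values of the 23977 probe sets other than controls, 26.8% sat at the floor of 2.16, which compresses differences from it. The labelling kit primes from the 3′ end, per the labels' protocols. The number of arrays limits the precision. No scanner files were used, and the values were not normalized again.

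The 69 reporter and tag controls, left without target per the labels, set the background at their 95th percentile (2.23). The bright reporter control described below was among them. Differences came from 1 linear model over the 24 arrays, with a mean for each of the 8 tissues, fitted with limma 3.58.1 (lmFit, eBayes) in R 4.3.3 and tested on simulated data beforehand. The labels call the samples biological replicates, with no word on separate plants or plots, so p-values measure the spread between these samples. For a tissue with no array above background, only a bound on the fold is given, the brighter mean set against background or the dim values where these were higher. Figures were drawn with matplotlib 3.10.9.

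The platform annotation gave 697 probe sets 1 gene symbol and 46 several, which were not named. Its 520 symbols all matched RefSeq's Gossypium hirsutum gene table, whose alternative names for 246 genes were used for 21 lists of 190 genes, because product names were not in the tables. Members and lists were chosen with earlier results of these data known. Named are the 12 loci highest and the 12 lowest among called genes with non-overlapping arrays (the probe set with the higher mean over all arrays), the 2 unnamed probe sets in each direction, and up to 6 called genes a list. Genes without a call are named beside them as examples chosen after their values were seen. Promoter motifs were not analysed here.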

Additional observations from a re-analysis of the deposited data

Results flagged for a closer look

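A reporter control probe set, RPTR-Ghi-X03453-2_s_at, gave a strong signal. It thus did not act as a control without target, which is how the labels describe the reporter controls. Whether its target was added to the arrays was not tested. It averaged 14.3 ± 0.12 on the log2 scale in leaf and 14.2 ± 0.11 in seedling (SD, n = 3 each), at 14.34, 14.13 and 14.35 in leaf, and 14.34, 14.18 and 14.14 in seedling. It was bright on every array of both tissues and did not separate them.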

How the results depend on the processing

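No paired analysis was possible because leaf and seedling samples share no replicate numbers. Leaving out each array in turn kept the count of probe sets higher in leaf between 1399 and 1479 and that of probe sets lower in leaf between 1504 and 1590. Spike-in scaling gave 865 probe sets lower in leaf. Testing against a difference of 1 gave 415 higher and 630 lower, leaving out _s_at and _x_at probe sets 917 and 772, adjusted p alone 3362 and 3165, and the stricter limits of 0.01 for adjusted p and 2 for the difference gave 437 and 569. Under that last setting, 60.2% of the higher set was highest in leaf and 52.9% of the lower set in seedling. Its shares lower in anthers were 16.7% at 5 mm and 32.5% at 7 mm for the higher set, and 23.9%, 25.7% and 22.7% at 5, 7 and 8 mm for the lower set. The share of all tested probe sets lower in anthers under these stricter limits was not counted. These shares therefore cannot be read as more or less than that of the tested set. With each comparison fitted on its own 6 arrays, the 5 mm shares were 13.3% and 22.2%, beside 8.24% of all tested probe sets in that fit. An alternative background of 2.78 was chosen after seeing the data, because the planned 99th percentile fell on the bright control. It gave 233 probe sets above background in seedling and not in leaf. Except where fewer probe sets or arrays entered by construction, the cause was not tested. Of 72 named items, 53 kept their call under all 14 alternatives, and none changed direction. Spike-in scaling ended the call of 16. Array signals close to background limit what can be said of dim genes.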

Other observations

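Outside the lists, 55 tested genes had an alternative name, of which 4 were higher in leaf and 14 lower; those named here were chosen after their values were seen. CBP2 averaged 9.63 in leaf and 13.78 in seedling, a difference of -4.15 (adjusted p = 5.2e-07). The S-adenosylmethionine synthetase gene MAT, whose product supplies methyl groups and the precursor of ethylene, differed by -2.24 (adjusted p = 2.8e-07). The annexin genes Anx1 (LOC107913673) and AnnGh1 (LOC107905123) differed by -2.04 and -1.23, and the small GTPase genes Rac9 and Rac13 by -2.74 and -1.25. Among the 4 higher in leaf, Pat1 was at 1.54 and PAP1 at 1.14.

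Probe sets of 1 gene did not always move together. Of 101 genes with several tested probe sets, 36 had a call on some probe set, and in 25 of the 36 all probe sets differed in the same direction. LOC107899490 had opposite calls, at -1.25 and 1.43.

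Calls were unevenly spread over kinds of probe set. Among probe sets ending in _at, 10.1% were higher in leaf and 8.37% lower, against 6.98% and 9.49% of those ending in _s_at. Of 36 tested probe sets whose names start with GbaAffx, none was higher in leaf and 12 were lower, without a test of that share. Between levels of 4 and 6, 15.5% of probe sets were higher and 17.1% lower in leaf, against 2.89% and 4.84% below 4.

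Control probe sets outside the tests also differed between the tissues. The 3 probe sets named AFFX-Ghi-ss1 averaged 8.66, 6.84 and 5.96 in leaf at the 3′, middle and 5′ positions, and 11.40, 9.69 and 8.38 in seedling. The actin control's 5′ minus 3′ difference, a measure of RNA integrity, was -3.29 to -2.52 in leaf and -3.23 to -2.88 in seedling, so its ranges overlapped.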
